A study of Drosophila melanogaster with 2 samples.

Results

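Dcr-1, Dcr-2, AGO1, AGO2, r2d2, loqs, pasha and drosha, 8 of the 17301 genes in the files, encode the core proteins that make and load microRNAs and small interfering RNAs in Drosophila. They were taken by gene symbol, and their 23 annotated transcripts were summed to a gene value. Each of the 8 was at 5 FPKM or more in both libraries, so each passed the filter of 1 FPKM in at least 1 library that left 10576 genes. FPKM is a fragment count scaled by transcript length and by library size, which allows levels of different genes to be compared.

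In the nucleus, the ribonuclease Drosha and its double-stranded RNA binding partner Pasha cut microRNA precursors out of long transcripts. In the cytoplasm, Dcr-1 with Loqs cuts the precursor and the product is loaded into AGO1, while Dcr-2 cuts long double-stranded RNA and, with R2D2, loads the products into AGO2. The second route destroys viral RNA and also carries out the silencing that RNA interference transgenes trigger. The early embryo receives much of its RNA from the mother, and microRNAs of the young zygote take part in the clearance of that maternal RNA.

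RNA was sequenced from pooled embryos aged 0 to 16 h, kept at 25 °C, as 1 poly(A) library per genotype and 2 libraries in all. Both carried the driver P{en2.4-GAL4}e22c and the reporter P{tGPH}4 over a wild-type chromosome, on a y1 w* background with y1 v1 in part of the embryos. The knockdown-labelled library had the Lim3 interference transgene P{TRiP.JF02125} at the landing site attP2, and the control library had P{y+t7.7=CaryP} there. The driver parents carried P{tGPH}4 over the balancer TM3, Ser1, and which cells of the embryo the driver reaches is not given by the labels. Neither genotype is described as carrying an added copy of a gene of the interference machinery. Lim3 itself, the target, was at 18.5 FPKM in the knockdown-labelled library and 5.81 FPKM in the control library, which goes against the label, so that library is called by its label throughout. With 1 library per group, no difference below has a replicate check and no p-value is given.

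About 32500000 fragments stood behind the knockdown-labelled library (31500000 to 32500000 over the settings tried) and about 22200000 behind the control library (21200000 to 23400000), estimated from the smallest values. The intervals in brackets below are exact 95% intervals for counting error at these depths. They do not cover differences between embryo collections or library preparations, and in bulk embryos fewer cells of a type and less RNA per cell cannot be told apart.

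On the scale log2((knockdown + 1)/(control + 1)), none of the 8 genes differed by 2-fold or more between the libraries, against 2.39% of all tested genes. Those were 1.02% higher (108 genes) and 1.37% lower (145 genes) in the knockdown-labelled library. On the same scale 6 of the 8 lay below 0, where 56.5% of all tested genes lay. The median of the 8 was -0.13 and that of all tested genes -0.04. drosha had the lowest difference of the 8 (-0.47), and both Argonaute genes were the ones above 0. Rescaling the libraries to an equal FPKM sum moved the median of all tested genes to 0.21 and left 1 of the 8, drosha, below 0. As deposited, the counting interval of the ratio excluded 1 for each of the 8 and for 60.4% of all tested genes. It lay below 1 for 6 of the 8 and for 37.4% of tested genes. It lay above 1 for 2 of the 8 and for 23.0%. Counting error at this depth thus separates most genes of the 2 libraries. The intervals do not cover the choice of scaling. With an equal FPKM sum outside ribosomal protein genes, loqs, Dcr-1, pasha and r2d2 were at -0.0005, -0.005, -0.014 and -0.023. drosha and Dcr-2 were then at -0.35 and -0.12, and AGO1 and AGO2 at 0.28 and 0.26.

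**Figure D1:**
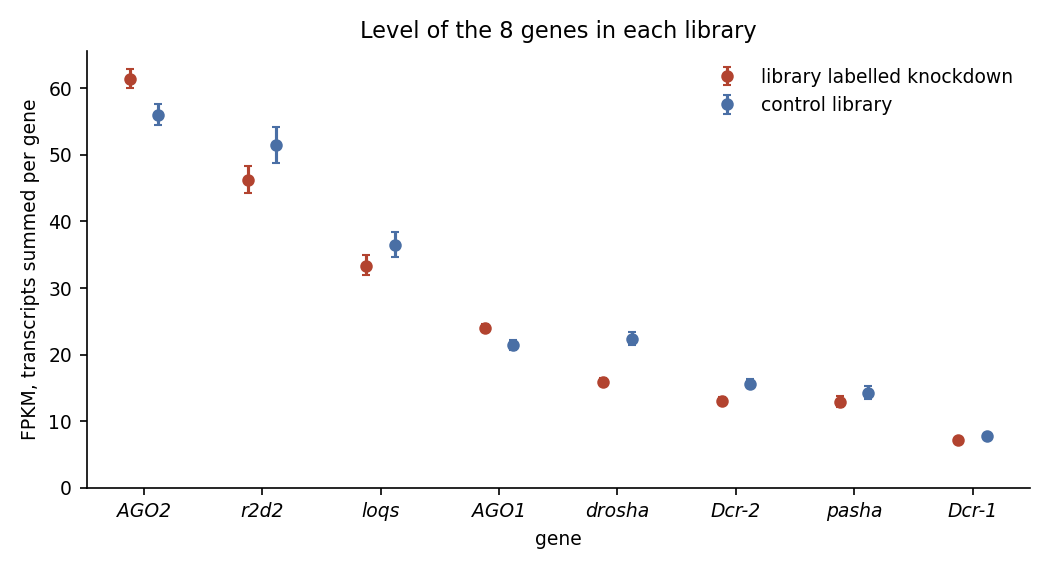
FPKM (y axis, linear, from 0) of each of the 8 genes (x axis, by falling level) in the knockdown-labelled library (red) and the control library (blue), 1 library each. Points are summed transcript values and bars are 95% counting intervals. AGO2 is highest and Dcr-1 lowest in both libraries, and drosha has the widest gap relative to its level.

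The microRNA route begins with drosha, which encodes the nuclear ribonuclease. drosha (FBgn0026722, chromosome 2R, 7932429 to 7936840 in the Release 6 annotation, plus strand) was at 15.9 FPKM in the knockdown-labelled library (15.2 to 16.6) and 22.4 FPKM in the control library (21.5 to 23.4). The control library was thus higher by 1.41-fold (1.33 to 1.498), on about 2214 and 2136 fragments, and 6.38% of tested genes had a lower log2 difference. drosha has a single annotated transcript of 4290 nt in 3 exons, and no exon of another gene overlaps it. It was the only member below 0 under all 3 rescalings, at -0.21 with an equal FPKM sum, -0.40 with a median ratio of 0 and -0.35 with an equal sum outside ribosomal protein genes.

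pasha, which encodes the double-stranded RNA binding partner of Drosha, was closer between the libraries. pasha (FBgn0039861, 3R, 31617977 to 31622217, plus strand) was at 12.9 FPKM in the knockdown-labelled library and 14.3 FPKM in the control library, a ratio of 0.904 (0.824 to 0.993) and a log2 difference of -0.14. drosha therefore stood at 1.23 times the level of pasha in the knockdown-labelled library (1.14 to 1.32) and at 1.57 times in the control library (1.44 to 1.70). This ratio is formed inside each library and does not depend on the scaling between them, and the intervals do not overlap. The pasha transcripts pasha-RA, of 642 codons, and pasha-RB, of 580 codons, shared the gene about equally, with pasha-RA at 52.4% of its FPKM in the knockdown-labelled library and 49.6% in the control library. pasha-RC was listed at 0 in the knockdown-labelled library and at 0.189 FPKM in the control library. It overlaps 82 nt of kek6 on the same strand, and kek6 was at 1.15 and 1.06 FPKM in these libraries. The part of that overlap in the pasha-RC value was not tested.

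Dcr-1 encodes the Dicer of the microRNA route and was the least abundant of the 8. Dcr-1 (FBgn0039016, 3R, 22734007 to 22741091, minus strand), with 1 transcript of 6913 nt, was at 7.14 FPKM in the knockdown-labelled library (6.80 to 7.50) and 7.85 FPKM in the control library (7.41 to 8.31), a log2 difference of -0.12. Its level exceeded that of 26.2% of tested genes in the knockdown-labelled library and 28.7% in the control library. drosha stood at 2.22 and 2.86 times Dcr-1 in the knockdown-labelled library and in the control library, again with intervals that do not overlap (2.08 to 2.37 and 2.66 to 3.07). Dcr-1 and its partner loqs kept nearly the same proportion, Dcr-1 being at 0.214 of the loqs level in the knockdown-labelled library (0.200 to 0.229) and 0.215 in the control library (0.199 to 0.232).

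loqs encodes double-stranded RNA binding proteins that serve both Dicers through different isoforms. loqs (FBgn0032515, 2L, 13382652 to 13385671, plus strand) was at 33.4 FPKM in the knockdown-labelled library and 36.5 FPKM in the control library, a ratio of 0.913 (0.853 to 0.979). loqs-RB codes for the long isoform of 465 amino acids, the main partner of Dcr-1, and was at 15.8 and 16.0 FPKM in these libraries. loqs-RD codes for an isoform of 359 amino acids that lacks the third double-stranded RNA binding domain and works with Dcr-2, and it was at 11.5 and 11.8 FPKM. The share of loqs-RD in the gene was 34.5% in the knockdown-labelled library and 32.4% in the control library, and its level relative to loqs-RB was 0.729 and 0.738. That ratio leaves out loqs-RF, which codes for 464 amino acids and is nearly identical to loqs-RB. The share of the Dcr-2 isoform thus differed by 2.14 percentage points.

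The minor loqs transcripts differed more in ratio at low level. loqs-RC, with a coding part of 383 codons and a longer 3′ untranslated region, was at 0.313 FPKM in the knockdown-labelled library and 1.20 FPKM in the control library, where it was higher by 3.84-fold (2.28 to 6.51) on about 22 and 57 fragments. It has 130 nt that no other loqs transcript holds, so its value rests on a short stretch. loqs-RA was at 1.83 and 2.68 FPKM, loqs-RF at 3.74 and 4.47 FPKM, and loqs-RE at 0.173 and 0.332 FPKM. loqs-RF (2014 nt) is nearly identical to loqs-RB (2017 nt), and loqs-RE (1876 nt) to loqs-RA (1879 nt). None of these transcripts has a base of its own, so the values hold little to separate them within each pair, and the intervals do not cover that. The counting intervals of the ratio included 1 for loqs-RF (0.689 to 1.01) and for loqs-RE (0.221 to 1.27, on about 11 and 14 fragments), and that of loqs-RA did not (0.522 to 0.897). After rescaling to an equal FPKM sum loqs-RF had a log2 difference of 0.02. The noncoding gene CR44599 overlaps up to 420 nt of loqs transcripts on the opposite strand and was at 55.3 and 60.2 FPKM; whether the counting used strand is not given, and the part of that overlap in the loqs values was not tested.

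AGO1 encodes the Argonaute that carries most microRNAs. AGO1 (FBgn0262739, 2R, 13943387 to 13958089, minus strand) was at 23.996 FPKM in the knockdown-labelled library (23.4 to 24.6) and 21.4 FPKM in the control library (20.7 to 22.2), a ratio of 1.12 (1.07 to 1.17) and a log2 difference of 0.16. Beneath this small difference of the sum, its transcripts were divided differently. AGO1-RD was at 15.4 FPKM in the knockdown-labelled library and 9.30 FPKM in the control library, a ratio of 1.66 (1.57 to 1.76). AGO1-RB was at 8.56 and 12.1 FPKM, a ratio of 0.705 (0.657 to 0.756). AGO1-RD thus made up 64.3% of the gene in the knockdown-labelled library and 43.4% in the control library, and the order of the transcripts was reversed, with AGO1-RD at 1.80 times AGO1-RB in the former and 0.766 times in the latter. AGO1-RD was higher and AGO1-RB lower in the knockdown-labelled library under each of the 3 rescalings too.

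The transcripts differ at both ends. AGO1-RD starts at the distal promoter, codes for 984 amino acids and has a 3′ untranslated region of 4585 nt. AGO1-RB starts at a first exon inside the gene, codes for 950 amino acids with another amino end, and has a 3′ untranslated region of 2563 nt. They share 5397 nt, AGO1-RD has 2491 nt that AGO1-RB lacks, and AGO1-RB has 341 nt that AGO1-RD lacks. AGO1-RC and AGO1-RA were listed at 0 in both libraries; AGO1-RC is contained in AGO1-RD, which is longer by 360 nt. The shift of 21.0 percentage points was the largest of the 6 members with more than 1 transcript. By a rule added after the values were seen, 1 of the 6 moved a transcript share by 10 points or more, where 26.4% of 4734 genes with several transcripts and 5 FPKM or more in both libraries did, and 6.40% of those genes moved at least as far as AGO1. CG33155, which lies on the opposite strand and was at 53.0 and 52.3 FPKM (0.02), overlaps 163 nt of AGO1-RD and none of AGO1-RB, and its part in the AGO1-RD value was not tested. The division of fragments among transcripts is an estimate of the authors' software, and the intervals do not cover its error. No member transcript differed by 2-fold or more on the scale with 1 added, against 7.31% of 18041 transcripts.

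**Figure D2:**
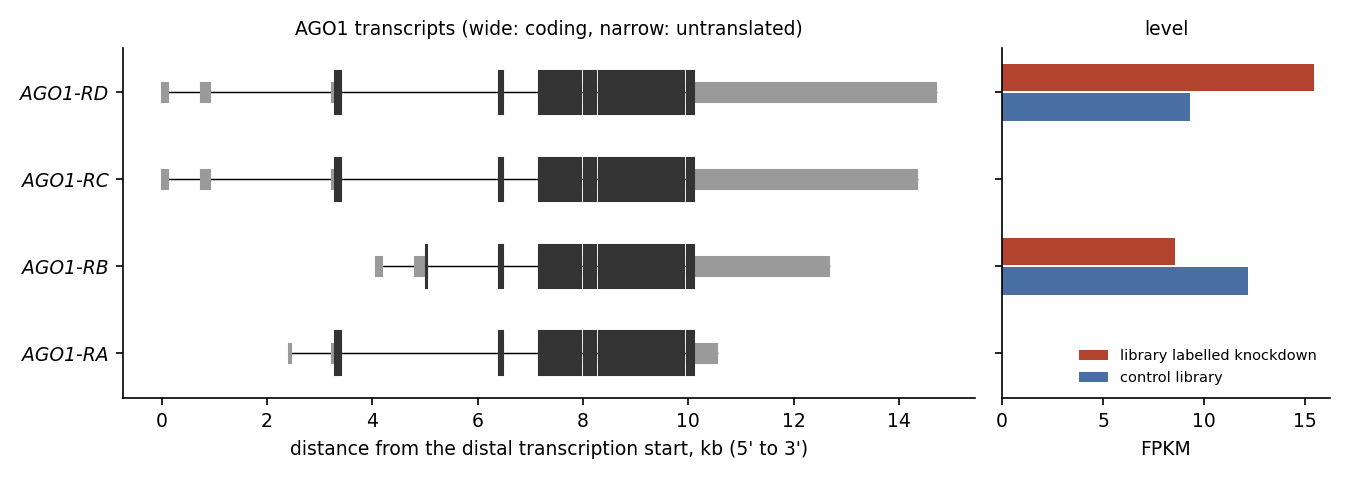
Left, the 4 annotated AGO1 transcripts drawn to scale by distance from the distal transcription start in kb (wide boxes coding, narrow boxes untranslated, lines introns). Right, the FPKM of each in the knockdown-labelled library (red) and the control library (blue), 1 library each. AGO1-RD is at 15.4 and 9.30 FPKM, AGO1-RB at 8.56 and 12.1 FPKM, and the other transcripts are listed at 0.

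The small interfering RNA route starts with Dcr-2, the Dicer of long double-stranded RNA. Dcr-2 (FBgn0034246, 2R, 17574979 to 17581525, minus strand) was at 13.1 FPKM in the knockdown-labelled library (12.6 to 13.6) and 15.6 FPKM in the control library (15.0 to 16.3), a ratio of 0.837 (0.788 to 0.888). Its log2 difference of -0.24 was the second lowest of the 8, and 23.1% of tested genes had a lower one; it was 0.02 after rescaling to an equal FPKM sum. Dcr-2-RA held 99.996% of the gene in the knockdown-labelled library and 99.992% in the control library, but Dcr-2-RB differs from it by 3 nt and the values hold little to separate them. Dcr-2 was at 1.83 times Dcr-1 in the knockdown-labelled library (1.72 to 1.95) and 1.99 times in the control library (1.85 to 2.14), intervals that overlap.

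r2d2 encodes the partner with which Dcr-2 loads AGO2. r2d2 (FBgn0031951, 2L, 7800147 to 7802098, plus strand) was at 46.2 FPKM in the knockdown-labelled library and 51.4 FPKM in the control library, a ratio of 0.899 (0.840 to 0.962) and a log2 difference of -0.15. Dcr-2 stood at 0.283 of the r2d2 level in the knockdown-labelled library (0.267 to 0.3004) and 0.304 in the control library (0.284 to 0.325), with intervals that overlap. Transcripts of r2d2 with the same 311 codons did not all differ in the same direction. The short r2d2-RB was at 30.9 and 37.4 FPKM, a ratio of 0.827 (0.757 to 0.903), while r2d2-RA, which extends 3′, was at 14.4 and 13.6 FPKM, a ratio of 1.06 (0.954 to 1.19). r2d2-RC was at 0.843 and 0.433 FPKM. The 3′ extension of r2d2-RA overlaps 431 nt of Cdc14 on the opposite strand, and Cdc14, a phosphatase gene, was at 18.5 and 14.8 FPKM (log2 0.30); its part in the r2d2-RA value was not tested. After rescaling to an equal FPKM sum r2d2-RB was at 0.01.

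AGO2, the Argonaute that cleaves targets of small interfering RNAs, was the most abundant of the 8. AGO2 (FBgn0087035, 3L, 15554113 to 15561042, plus strand) was at 61.4 FPKM in the knockdown-labelled library (60.1 to 62.8) and 56.02 FPKM in the control library (54.4 to 57.6), a ratio of 1.10 (1.06 to 1.14) and a log2 difference of 0.13. Its level exceeded that of 81.9% of tested genes in the knockdown-labelled library and 78.2% in the control library. Most of it was assigned to AGO2-RE, at 48.3 and 44.6 FPKM or 78.6% and 79.7% of the gene, which codes for 787 amino acids, 427 fewer at the amino end than AGO2-RB. AGO2-RB was at 11.3 and 10.4 FPKM, and its share was 18.5% in each library. The 2 transcripts share 3757 nt and differ only at the 5′ end, where AGO2-RB has 293 nt that AGO2-RE lacks and AGO2-RE has 27 nt that AGO2-RB lacks. The split between them thus rests on short stretches, and the intervals do not cover its error. AGO2-RC, the transcript of 1217 codons, was at 1.79 and 0.999 FPKM. AGO2 and CG7739, on the opposite strand, overlap by 317 nt at their 3′ ends, and CG7739 was at 40.8 and 38.4 FPKM.

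**Figure D3:**
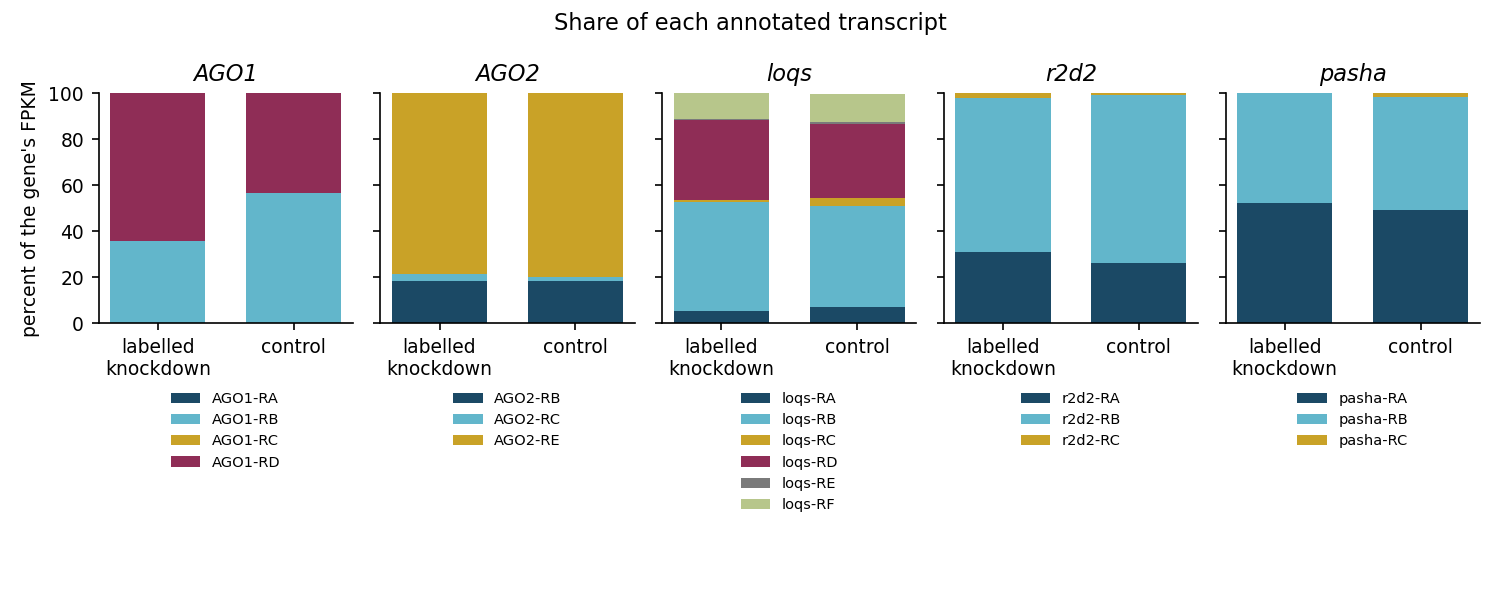
Percent of the FPKM of a gene (y axis, stacked from 0 to 100) in each annotated transcript, for the 5 members with several transcripts other than Dcr-2, in the knockdown-labelled library (left bar of each pair) and the control library (right bar). AGO1 shows a shift of 21.0 points between AGO1-RD and AGO1-RB, and the largest shift of the other 4 is 5.83 points, in r2d2.

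AGO2 and AGO1 stood in a like proportion in both libraries, since AGO2 was at 2.56 times AGO1 in the knockdown-labelled library (2.47 to 2.65) and 2.61 times in the control library (2.50 to 2.73). r2d2 was at 1.39 times loqs (1.30 to 1.48) and 1.41 times (1.31 to 1.51). Both Argonautes were higher relative to their Dicers in the knockdown-labelled library. AGO2 was at 4.70 times Dcr-2 there (4.49 to 4.92) and 3.58 times in the control library (3.40 to 3.78), and AGO1 at 3.36 times Dcr-1 (3.18 to 3.55) and 2.73 times (2.56 to 2.92). Of the 9 pairs compared, these and the 2 pairs with drosha had intervals that do not overlap between the libraries. No share over other gene pairs was computed to set beside this count. For single genes, the counting interval of the ratio between the libraries excluded 1 in 60.4% of tested genes. The order of the 8 by level was the same in both libraries except for AGO1 and drosha, which changed places, with drosha at 22.4 FPKM and AGO1 at 21.4 FPKM in the control library, where their counting intervals overlap. In the knockdown-labelled library, Dcr-2 and pasha, at 13.1 and 12.9 FPKM, did not differ beyond counting error.

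**Figure D4:**
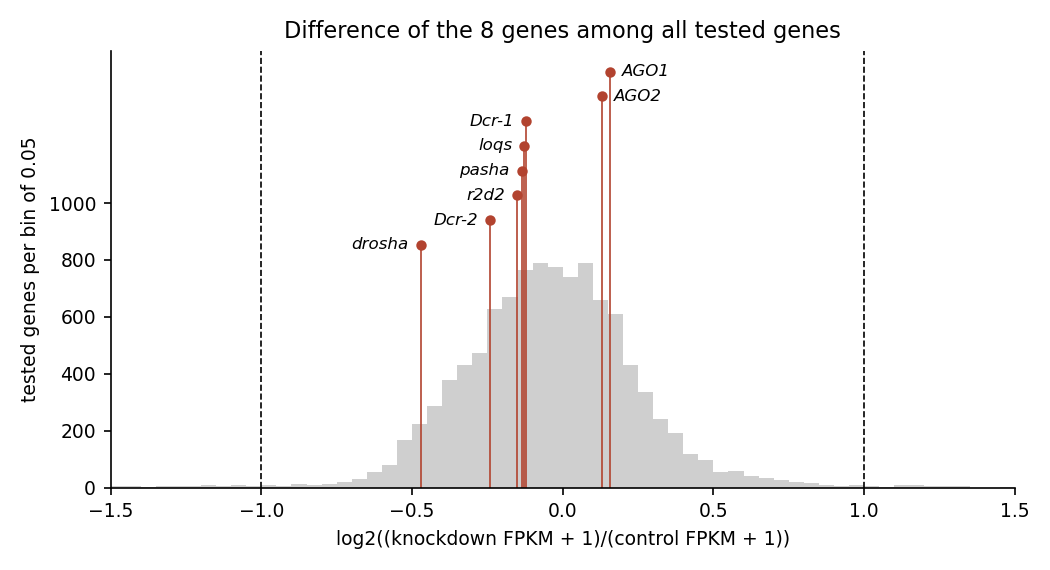
Number of tested genes (y axis) per bin of the log2 difference between the knockdown-labelled library and the control library (x axis, with 1 added to each FPKM), with the 8 genes marked by red lines whose heights serve only to separate the names. Dashed lines mark a difference of 1 in either direction; 131 genes lie beyond the plotted range. drosha is at -0.47, Dcr-2 at -0.24, 4 genes lie between -0.15 and -0.12, and AGO2 and AGO1 are at 0.13 and 0.16.

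Log2 differences were higher for genes with longer transcripts. Tested genes whose longest transcript has 1000 to 2000 nt had a median log2 difference of -0.10, and those of 6000 nt or more one of 0.05. drosha (-0.47) and Dcr-2 (-0.24) have transcripts of 4290 and 5684 nt, and genes of 4000 to 6000 nt had a median of 0.04 with quartiles at -0.10 and 0.17. AGO1, the longest of the 8 at 7888 nt, was at 0.16 as deposited and 0.04 with the length trend removed, and AGO2 was at 0.13 and 0.04. Removal of the trend moved drosha to -0.57, Dcr-2 to -0.35 and Dcr-1 from -0.12 to -0.23, further from 0, and pasha, loqs and r2d2 were at -0.20, -0.15 and -0.15.

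Around the core, 41 accessory genes in 4 lists were measured, and none differed by 2-fold or more, against 2.39% of all tested genes. Of these, 33 lay below 0 and 8 above, where 56.5% of all tested genes lay below 0, and their median was -0.10, against -0.04 for all tested genes. Genes named below are the extremes of each list, and Ranbp21, Hen1, trsn, Trax and gw were added for their roles after their values were seen.

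Genes that act on microRNA precursors had a median of -0.10, with 10 of 12 below 0. Cbp20, a subunit of the nuclear cap-binding complex that also stands in the small interfering RNA list, was lowest at 130 FPKM in the knockdown-labelled library and 181 FPKM in the control library (-0.47). Fmr1, which encodes an RNA-binding protein found with Argonaute complexes and is in both lists too, was highest of this list at 34.8 and 30.7 FPKM (0.18). Ranbp21, the exportin of microRNA precursors, was at 16.2 and 21.1 FPKM, a ratio of 0.766 (0.726 to 0.810) and a log2 difference of -0.36.

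Accessory genes of the small interfering RNA route had a median of -0.08, with 10 of 13 below 0. Hen1, the methyltransferase that protects the ends of small RNAs in AGO2, was at 4.70 and 6.46 FPKM (-0.39). trsn, a subunit of the nuclease that helps to clear the passenger strand, was at 48.1 and 45.7 FPKM (0.07). The counting interval of its ratio included 1 (0.966 to 1.15). Trax, of the same list, differed in the other direction, at 34.2 and 38.9 FPKM (-0.18), a ratio of 0.879 (0.806 to 0.959). vig was highest at 74.7 and 65.4 FPKM (0.19); it encodes a protein found in the AGO2 complex and is nested in vas, a germ-line gene at 13.4 and 10.6 FPKM (0.31). The 6 chaperone genes listed for Argonaute loading had a median of -0.07, from Hsc70-4 at 1716 and 2099 FPKM (-0.29) to Hsp83 at 441 and 400 FPKM (0.14). The list includes Hsc70-3 (-0.03), and a part of each of the 6 in loading was not tested.

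Genes that carry out repression below AGO1, by deadenylation and decapping, had the lowest median of the 4 lists, -0.14, with 13 of 15 below 0. me31B, a helicase of repressed messages that is supplied by the mother, was lowest at 605 and 850 FPKM (-0.49), and Edc3, an enhancer of decapping, highest at 15.3 and 14.6 FPKM (0.06). gw, which encodes the GW182 protein bound by AGO1, was at 95.8 and 96.5 FPKM (-0.01). Among the Argonautes of the germ line, which belong to the PIWI clade, piwi was at 16.3 and 16.1 FPKM (0.02), AGO3 at 22.5 and 22.9 FPKM (-0.02) and aub at 14.2 and 19.3 FPKM (-0.42). AGO1, AGO2 and piwi were thus above 0, and AGO3 and aub below it. The counting interval of the ratio included 1 for piwi (0.938 to 1.09) and for AGO3 (0.917 to 1.05). The 7 other measured genes of double-stranded RNA binding proteins ranged from -0.22 for blanks, at 3.06 and 3.72 FPKM, to 0.02 for DIP1, at 55.4 and 54.7 FPKM.

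**Figure D5:**
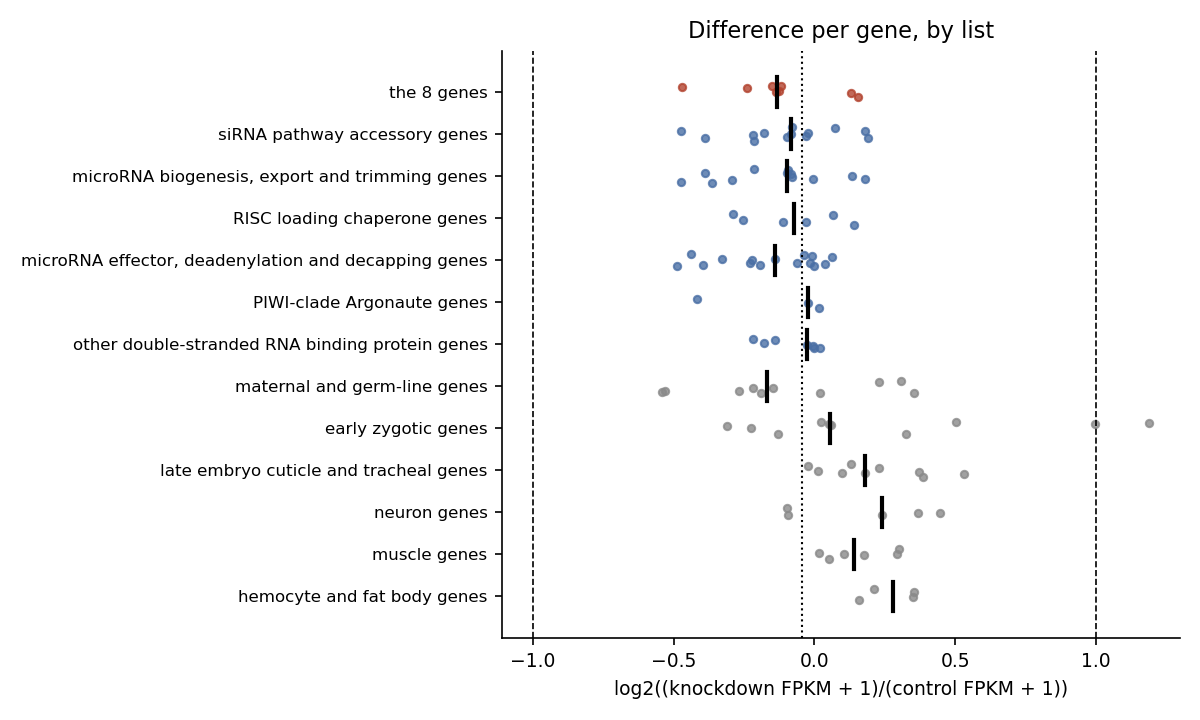
Log2 difference between the knockdown-labelled library and the control library (x axis, with 1 added to each FPKM) for each tested gene of each list (y axis); red, the 8 genes; blue, accessory genes and related families; grey, markers of embryonic age and tissue. Thick ticks are list medians, the dotted line is the median of all tested genes (-0.04) and dashed lines mark a difference of 1. The 8 genes have a median of -0.13, maternal and germ-line genes one of -0.17 and early zygotic genes one of 0.06. The lists of late tissues have medians above 0.

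Markers of embryonic age and tissue differed between the libraries as well, and their part in the differences above was not tested. Of all 10576 tested genes, 5978 (56.5%) lay below 0 and 4598 above. Their summed FPKM in the knockdown-labelled library was 0.823 of that in the control library. The values below are as deposited, so they depend on the scaling between the libraries. The 10 maternal and germ-line genes had a median of -0.17, with 6 below 0, from bcd at 24.5 FPKM in the knockdown-labelled library and 36.2 FPKM in the control library (-0.54) to osk at 34.8 and 27.0 FPKM (0.35). The summed level of these 10 was 622 and 693 FPKM, a ratio of 0.897, which is above the 0.823 of all tested genes. The 10 early zygotic genes had a median of 0.06 and sums of 289 and 209 FPKM, from twi at 12.7 and 16.0 FPKM (-0.31) to halo at 71.5 and 30.8 FPKM (1.19), which was past the 2-fold size. Late cuticle and tracheal genes summed to 1799 and 1492 FPKM, with 8 of 9 above 0 and a median of 0.18, from Cht2 (-0.02) to neo (0.53). Muscle genes summed to 2098 and 1880 FPKM, with 6 of 6 above 0, from Mef2 (0.02) to Prm (0.30). Neuron genes summed to 41.9 and 37.9 FPKM, with 3 of 5 tested above 0, from futsch (-0.10) to Syt1 (0.44), and hemocyte and fat body genes to 176 and 140 FPKM, with 4 of 4 tested above 0, from Pxn (0.16) to Cg25C (0.35). No marker was listed at 0 in either library, but Hml, a hemocyte gene, was near 0 at 0.0718 and 0.0940 FPKM, and the sodium channel gene para was at 0.391 and 0.541 FPKM.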

How the data were processed

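RNA of pooled embryos was sequenced as 1 library per genotype. The libraries were directional and made from poly(A) RNA, and molecules of 250 to 400 bp were purified by gel, per the labels' protocols. The authors deposited FPKM, with 1 value for each transcript in each library, per the file headers; TopHat and Cuffdiff are named in the submitters' processing notes. Their settings and the genome build are not stated in the labels or headers.

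From the deposited FPKM values, transcripts were summed per gene identifier, leaving out 365 transcripts without one. Differences are log2((knockdown + 1)/(control + 1)) for genes reaching 1 FPKM in either library, and the size rule was an absolute difference of 1. Ratios are plain ratios of FPKM. The value of 1 fragment was read from the lowest pile-up of FPKM times length among genes with 1 transcript of 1000 to 3000 nt (974 and 973 genes), and exact 95% intervals follow from the fragments this gives (SciPy 1.17.1). These intervals depend on that estimate and hold counting error alone. The depth estimate was tried on simulated counts of genes with 1 transcript, and the interval on simulated counts at a known depth. Neither trial covers the division of fragments among transcripts. Gene places and transcript structures are from the Release 6 annotation, and the lengths of all 23 member transcripts are the same in the files. The places are not: the deposited data put Dcr-1, for example, at 18559729 to 18566813 on 3R, so the places printed here are not those of the deposited data for several members. Of the symbols in the accessory and family lists, 10 matched no row of the files by that spelling. Named genes are the 8 members, Lim3, the PIWI-clade genes and, per list, the extremes and any gene past the size rule; other genes, named for their role, their overlap with a member or their low level, were chosen after their values were seen. The members, lists and pairs were chosen with earlier results of these data known.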

Additional observations from a re-analysis of the deposited data

How the results depend on the processing

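No member and no accessory gene passed the size rule under any of the alternatives run (pseudocounts of 0.1 and 5, 3 rescalings, no filter, a filter at 5 FPKM, removal of the length trend and, for the members, 1 transcript per gene). Rescaling to an equal FPKM sum adds 0.28 to the log2 ratio and turned the median of the 8 to 0.13, left 1 of them below 0 and turned the accessory median to 0.18, while the split over all tested genes went from 108 higher and 145 lower to 175 and 109. An equal sum outside ribosomal protein genes turned the accessory median to 0.032 and moved the median of the 8 to -0.01. With the 0.1 pseudocount 177 tested genes were higher and 210 lower, and with 5, 52 and 90. Taking per gene the 1 transcript with the highest FPKM summed over both libraries (for AGO1 this is AGO1-RD, although AGO1-RB is higher in the control library) moved the ratio of ratios (labelled knockdown over control) from 0.980 to 0.652 for AGO2 over AGO1, from 1.23 to 1.82 for AGO1 over Dcr-1, from 0.984 to 0.838 for r2d2 over loqs and from 0.931 to 1.01 for Dcr-2 over r2d2; the first pair of changes follows from AGO1-RD, at 0.67 alone where the gene was at 0.16. Removal of the length trend, added after the data were seen, kept the sign of all 8. No paired analysis was possible because each group has 1 library. The files hold no counts, so depth is an estimate.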

Other observations

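The products of this machinery were not measured by these libraries. Of 236 annotated microRNA precursor genes of 54 to 215 nt, 231 were listed at 0 in both libraries, and an exact 0 can be a failed estimate for RNAs shorter than the molecules kept. Among the 5 others, mir-4961 was at 920 FPKM in the knockdown-labelled library and 890 FPKM in the control library, mir-4958 at 20.8 and 39.5 FPKM, and mir-4951, mir-4952 and mir-4959 were listed at 0 in 1 of the libraries. Of longer microRNA host transcripts, iab-8 was at 1.67 and 1.59 FPKM, iab-4 at 0.558 and 0.229 FPKM, and let-7-C at 0.0182 and 0.0606 FPKM. These genes were chosen after their values were seen.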
